A study of Mus musculus with 2 samples.

Results

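Dense clusters of distal open regions are stretches of the mouse genome where many DNase I peaks outside promoters lie close together. Chromosomes 1 to 19 and X were cut into windows of 50 kb, and a window was selected on its measured peaks: it had to hold the midpoints of at least 10 shared distal regions. A shared region is a stretch of the merged peak lists that holds a peak of each replicate, and it is distal when no part of it lies within 500 bp of an annotated transcript start. By this rule 561 of 52685 windows (1.06%) were dense. They held 6633 of the 107407 distal regions, or 6.18% (exact 95% binomial interval 6.03 to 6.32%, which covers counting error only).

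DNase I is an enzyme that digests accessible DNA more readily than DNA covered by nucleosomes, so peaks of cutting mark promoters, enhancers, insulators and other open sites. Enhancers, which raise transcription of genes at a distance, often lie in groups around genes that set a cell's identity, and such genes in the brain include transcription factors and microRNAs. The hindbrain holds the cerebellum, pons and medulla, where granule cell precursors from the rhombic lip, inhibitory neurons, brainstem neurons and glia are all present around birth.

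The tissue was the hindbrain of newborn (day 0) healthy mice of the B6NCrl strain, both sexes being mixed in a pool. The study has a single group of 2 biological replicates, which the labels record as separate tissue samples under one donor entry; the sources used here give no number of animals. There is no second condition, so the values compare the clusters with the rest of the same map and 1 replicate with the other, with no test over animals. The replicates had 270695 and 171741 peaks on the chromosomes used, and their read depth is unknown. In whole tissue, more cells with an open site and more opening per cell cannot be told apart. The tissue label was set beside marker genes: 20 of 20 pan-neuronal genes, 20 of 20 radial glia and astrocyte genes and 23 of 24 rhombic lip and granule lineage genes had promoter peaks in each replicate, against 3 of 20 liver genes and 5 of 17 skeletal muscle genes. The share of all coding genes with such peaks was 66.8%. Hindbrain segment and brainstem factors had them at 17 of 26 genes and housekeeping genes at 18 of 18, so these counts do not single out the hindbrain.

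The sequences of 6 regions, from 6 of the 10 fullest windows, were chosen after their values were seen to show how unlike the strongest regions of such windows are. Each is the region of at most 300 bp with the highest mean score percentile of its window, read from the plus strand of mm10, with CG dinucleotides in capitals. They come from the window of the microRNA gene Mir9-2 (chr13:83745056-83745225), that of Zic2 and Zic5 (chr14:122474156-122474365), that of Mir9-1 (chr3:88232436-88232585), that of Zfp503 (chr14:21987916-21988085), an intron of Immp2l (chr12:41262896-41263045) and an intron of Adamts18 (chr8:113755536-113755725).
Mir9-2 window: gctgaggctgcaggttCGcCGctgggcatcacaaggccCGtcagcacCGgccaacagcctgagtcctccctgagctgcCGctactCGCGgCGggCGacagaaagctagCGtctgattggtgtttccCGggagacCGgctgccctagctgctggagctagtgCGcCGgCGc
Zic2 and Zic5 window: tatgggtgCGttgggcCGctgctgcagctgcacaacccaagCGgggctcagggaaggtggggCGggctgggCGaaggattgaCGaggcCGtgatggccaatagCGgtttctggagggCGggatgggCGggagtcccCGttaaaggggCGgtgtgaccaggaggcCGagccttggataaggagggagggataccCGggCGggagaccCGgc
Mir9-1 window: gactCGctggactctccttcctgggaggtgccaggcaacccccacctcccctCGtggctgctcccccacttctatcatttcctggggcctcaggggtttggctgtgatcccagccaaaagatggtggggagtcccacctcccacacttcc
Zfp503 window: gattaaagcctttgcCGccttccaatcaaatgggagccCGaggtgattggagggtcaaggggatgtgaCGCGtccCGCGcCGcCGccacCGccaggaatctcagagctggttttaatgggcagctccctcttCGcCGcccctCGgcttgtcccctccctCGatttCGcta
Immp2l window: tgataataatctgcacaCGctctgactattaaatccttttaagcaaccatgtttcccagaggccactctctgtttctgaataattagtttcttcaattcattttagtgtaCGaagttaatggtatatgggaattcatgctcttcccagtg
Adamts18 window: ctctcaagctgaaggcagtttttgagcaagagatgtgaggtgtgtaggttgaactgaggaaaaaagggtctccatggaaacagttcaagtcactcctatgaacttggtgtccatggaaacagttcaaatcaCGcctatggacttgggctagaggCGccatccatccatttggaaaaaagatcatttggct
The Mir9-2, Zic2 and Zfp503 regions hold 15, 16 and 14 CG dinucleotides, with GC contents of 67.6%, 67.6% and 61.2%. The Mir9-1 region is also rich in GC, at 62.7%, but holds only 2 CG dinucleotides. The Immp2l and Adamts18 regions hold 2 each, with GC contents of 36.7% and 45.3%. Scores set the first 4 regions apart from the last 2: 137 and 123 in replicates 1 and 2 for the Mir9-2 region, 127 and 106 for Zic2, 118 and 92 for Mir9-1, and 143 and 130 for Zfp503, against 37 and 19 for Immp2l and 41 and 24 for Adamts18. The score is the authors' own value for a peak, from 1 to 150, and serves here only to rank peaks within a list. The Immp2l and Adamts18 regions lie before most regions of their windows, 12.9 and 5.5 kb from the window's start. Median scores of these windows in replicates 1 and 2 were 11 and 8.5 for Immp2l and 14 and 9 for Adamts18. Their weakest peaks are thus not shown by these sequences.

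The number of distal regions per window had a mean of 2.04, and 35810 windows held at least 1. Just outside the threshold 409 windows held 9 regions, and just inside it 229 held 10. These border windows had similar values: median scores were 69 and 47 in replicates 1 and 2 with 9 regions and 69 and 46 with 10, and the median numbers of distal peaks were 14 and 10 against 15 and 11. No gap in the counts separates the dense windows from those below. Of them 434 held 10 to 12 regions and 17 held 20 or more, up to 42. Midpoints of neighbouring regions inside a dense window lay a median of 1650 bp apart (quartiles 580 and 4732.5 bp), compared with 5300 bp in other windows, a difference the selection itself produces.

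**Figure D1:**
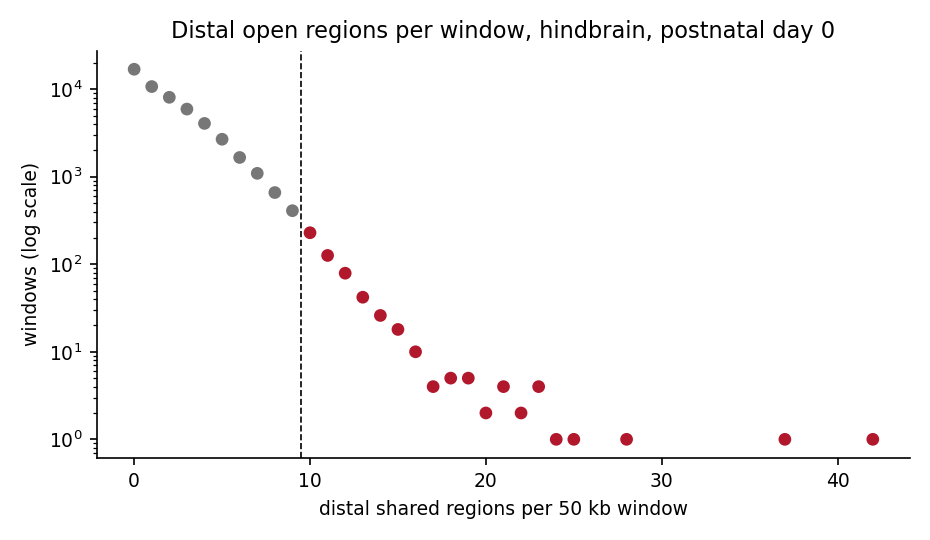
Number of 50 kb windows (vertical axis, log scale) by the number of distal shared regions they hold (horizontal axis). Red points are the 561 dense windows right of the dashed threshold; counts fall from 409 windows at 9 regions and 229 at 10 to single windows at 37 and 42.

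The window with the most regions, chr13:83700001-83750000, held 42 and surrounds Mir9-2, a gene of miR-9, which acts in neural progenitors and differentiating neurons. Replicate 1 had 52 distal peaks there and replicate 2 had 53. No protein-coding gene starts or lies in the window; its annotated genes are Mir9-2 and the non-coding C130071C03Rik, Gm26803 and Gm33366. All 42 regions have Mef2c, a neuronal and muscle transcription factor gene, as their nearest coding gene. Hotspots, the authors' broader regions of enriched cutting, covered 63.7% and 66.7% of the window in replicates 1 and 2, beside medians of 12.7% and 10% over all dense windows.

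The next window, chr14:122450001-122500000, held 37 regions, with 59 distal peaks in replicate 1 and 54 in replicate 2. It contains Zic2 and Zic5, zinc finger transcription factor genes of the dorsal neural tube and the granule cell lineage. Hotspots covered 63.9% and 52.7% of it. The related pair Zic1 and Zic4 lies in another dense window, chr9:91350001-91400000, which held 19 regions from 48 and 23 distal peaks; it is named here after its values were seen. At all 4 of these Zic genes both replicates showed promoter peaks.

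The other windows among the 10 with the most regions were of mixed kinds. A pair of low-score blocks, described below, supplied 3 of them: chr12:41250001-41300000 with 28 regions and chr12:41300001-41350000 with 25, both in an intron of Immp2l, and chr8:113750001-113800000 with 23, in Adamts18. A window at Mid1, chrX:169950001-170000000, held 24 regions. The 3 others with 23 were at Tuba1a (chr15:98950001-99000000), a tubulin gene of young neurons, at Mir9-1 (chr3:88200001-88250000) and at Zfp503 (chr14:21950001-22000000), which encodes a zinc finger repressor. The window of Mir9-3, chr7:79500001-79550000, held 22. Replicates 1 and 2 had 38 and 30 distal peaks at Tuba1a, 34 and 39 at Mir9-1, 30 and 32 at Zfp503, and 49 and 26 at Mir9-3. The Mir9-3 window was thus much fuller in replicate 1, while at Mir9-1 replicate 2 had the larger number.

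**Figure D2:**
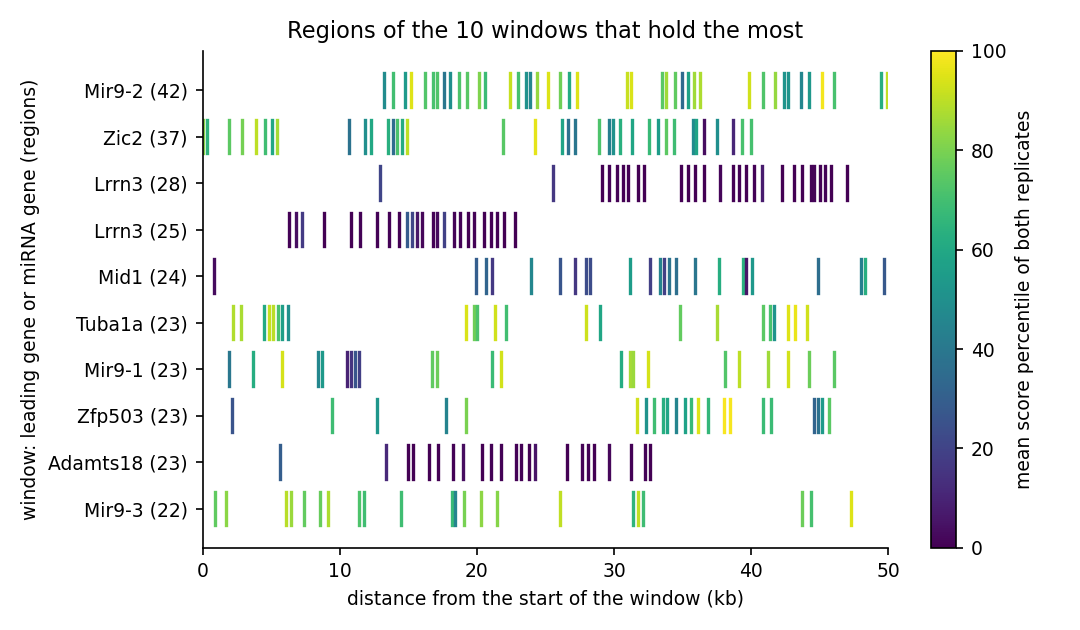
Position of each distal region (vertical tick) in the 10 windows with the most, as distance in kb from the start of the window; colour gives the mean score percentile of both replicates, and the number of regions stands in brackets. Regions of the Mir9-2 window span 36930 bp, while both Immp2l windows (labelled by their leading gene, Lrrn3) and the Adamts18 window are almost wholly of low percentile.

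MicroRNA genes stood out by name among the fullest windows, so all were counted. Of 2196 annotated microRNA genes 50 started in a dense window, which is 2.28% and close to the 2.52% of protein-coding genes that did; 1 of the 50, n-TStga1, carries the symbol of a transfer RNA gene. The families below were picked from these 50 after their values were seen and stand as a description. All 3 genes of miR-9 lay in dense windows, with 42, 23 and 22 regions. Of the 3 genes of miR-124, the main microRNA of neurons, Mir124a-3 (17 regions) and Mir124a-2 (16) did, and Mir124a-1, with 8, did not. Mir124a-2 had 24 and 23 distal peaks in replicates 1 and 2, Mir124a-3 had 22 and 22, and Mir124a-1 had 17 and 24. Mir124a-1 thus had about as many distal peaks as the others in replicate 2 and fewer in replicate 1. Both genes of miR-125b, Mir125b-1 and Mir125b-2, started in dense windows of 11 regions, Mir7-2 in one of 12, and Mir153 and the pair Mir181c and Mir181d in windows of 10.

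The mature forms are shown because loci on different chromosomes give the same microRNA. Sequences are from RefSeq for GRCm38.p6, with the seed, bases 2 to 8, in capitals.
miR-9-5p: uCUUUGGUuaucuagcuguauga
miR-9-3p: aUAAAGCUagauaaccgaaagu
miR-125b-5p: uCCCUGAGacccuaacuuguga
miR-7a-5p: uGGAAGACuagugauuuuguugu
miR-153-3p: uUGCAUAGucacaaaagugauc
miR-181c-5p: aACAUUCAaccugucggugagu
miR-181d-5p: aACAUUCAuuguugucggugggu
The genes Mir9-1 on chromosome 3, Mir9-2 on chromosome 13 and Mir9-3 on chromosome 7 carry the same 2 mature arms, and Mir125b-1 on chromosome 9 and Mir125b-2 on chromosome 16 the same 5′ arm. miR-181c-5p and miR-181d-5p share the seed ACAUUCA. DNase-seq shows open DNA around these genes and does not measure their RNA.

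Dense windows mostly stood alone: 455 had no dense neighbour, and 106 formed 46 runs of adjacent windows, of which 11 had at least 3 windows and the longest 4. Runs of 4 lay at Irf2bpl (chr12:86750001-86950000, 57 regions) and at Gse1 (chr8:120400001-120600000, 53 regions). The longest runs of 3 by number of regions were at Cxxc5, with 49, and at chr7:79450001-79600000, with 43, which takes in the Mir9-3 window; its leading coding gene is Polg, the mitochondrial DNA polymerase. Median scores in these 4 runs were 79 to 85 in replicate 1 and 54 to 59 in replicate 2. Counted over all dense windows, Gse1 was the nearest coding gene of 77 regions in 6 windows, 76 of them in introns, with a median distance of 37175 bp from its start. Zfp608 followed with 43 regions in 4 windows, leaving aside the low-score genes Lrrn3 (51) and Adamts18 (44).

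A part of the clusters lay away from annotated starts. No transcript of any kind starts in 99 dense windows, 17.6% of them, against 40.7% of all windows. Besides the Immp2l window with 28 regions, the fullest windows without a start were in Zfp423, a zinc finger factor of cerebellar precursors (chr8:87650001-87700000, 18 regions), between genes with Irf2bp2 nearest (chr8:126650001-126700000, 18 regions), in Ccdc85c and Ccnk (chr12:108200001-108250000, 16 regions) and in E130114P18Rik (chr4:97600001-97650000, 16 regions). Replicates 1 and 2 had 24 and 23 distal peaks in the Zfp423 window and 31 and 22 in the Irf2bp2 window.

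Coding genes were nonetheless common in the clusters. A coding start lay in 364 dense windows, 64.9%, compared with 37.7% of all windows. In these windows 548 coding genes start, 2.52% of the 21755 annotated, and the regions had 780 genes as their nearest coding gene, 3.59%. A promoter peak was present in both replicates at 480 of the 548 genes, 87.6%, against 66.8% of all coding genes and 66.3% of those that start elsewhere. By replicate the shares were 91.1% and 87.8% for genes in dense windows and 71.3% and 67.3% for all. Promoter peaks were not used to choose the windows, but they come from the same libraries, and no test was made of the difference.

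Over all coding genes, 2.52% started in a dense window and 3.59% were nearest to a clustered region. The list counts that follow stand beside these shares. The rhombic lip and granule lineage list has 24 genes, which are transcription factors, adhesion molecules and other markers. Of these, 8 started in a dense window and 10 were nearest to at least 1 clustered region. Zic4 led with 17 regions, followed by Zic2 with 13, Pax6, a regulator of granule precursors, with 11, and Nhlh2 with 9. Zic2 and Zic5 start in the same window, as do Zic1 and Zic4, so these starts are not separate clusters. Members of this list that were nearest to no clustered region include Atoh1, Barhl2, Eomes and Neurod1. Of 4 Nuclear factor I genes, which encode factors of glial and late neuronal differentiation, 3 started in dense windows, Nfib with 22 regions, Nfic with 13 and Nfix with 1. Among 9 Hox cofactor genes 3 did so: Meis1 had 29 clustered regions and Meis2 had 23. These lists had medians of 11.5, 24 and 20 distal regions per gene anywhere in the genome, against 2 for all coding genes, so long and region-rich neighbourhoods move with these counts; their part in the result was not tested.

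Of 21 Purkinje and GABA lineage genes 3 started in dense windows and 4 were nearest to clustered regions. The vesicular GABA transporter gene Slc32a1 had 20, the GABA-synthesizing enzyme genes Gad1 and Gad2 had 13 and 11, and the Purkinje cell factor Lhx1 had 11. The Lhx1 regions lay a median of 43256 bp from its start, against 4480 bp for Slc32a1, 2384 bp for Gad1 and 2467 bp for Gad2. Of 26 hindbrain segment and brainstem factors 3 started in dense windows and 4 were nearest. Gbx2, which positions the border of midbrain and hindbrain, had 16 regions, Irx2 11, Pax5 10 and Fev, the factor of serotonin neurons, 2. The median distance to the gene's start was 121502 bp for Pax5, against 6834 bp for Gbx2 and 3449 bp for Irx2. The radial glia and astrocyte list had 4 of 20 starts in dense windows and 6 nearest genes, led by Aldh1l1 with 15, Sparcl1 with 12 and the glutamate transporter gene Slc1a2 with 10. Sox genes had 2 of 13 starts and 3 nearest, Sox11 with 14 regions and Sox4 and Sox9 with 11 each. The Sox11 regions lay a median of 278373 bp from its start, against 4268 bp for Sox4 and 2253 bp for Sox9. Of 16 LIM and POU factors only Pou3f2 was counted on either measure, with 20 regions. That is 6.25% on both measures and rests on 1 gene.

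Of 20 pan-neuronal genes 2 started in dense windows and 3 were nearest, Ncam1 with 12 regions and Gap43 and Myt1l with 10 each. The Myt1l regions lay a median of 119101 bp from its start, against 4872 bp for Ncam1 and 11195 bp for Gap43. For 25 axon guidance genes the counts were 2 and 4, with 12 regions nearest to Slit1 and 10 each nearest to Epha4, Nrp2 and Plxna2. Median distances to the gene's start were 52436 bp for Slit1 and 78414 bp for Nrp2, against 4620.5 bp for Epha4 and 4317 bp for Plxna2. Of 22 synapse and ion channel genes only the calcium channel gene Cacna1a counted on either measure, with 10. The list's median was 25 distal regions per gene. Its share, 4.5% on both measures, is near the 2.52% and 3.59% of all coding genes and rests on 1 gene. No oligodendrocyte gene started in a dense window and 2 of 20 were nearest, Olig1 with 11 and Opalin with 10. Their regions lay a median of 35419 bp from the start of Olig1 and 34388 bp from that of Opalin. Opalin had no promoter peak in replicate 2. Notch and Id genes counted 2 of 16 on both measures (Notch1 with 12, Lfng with 7), and the Sonic hedgehog list 1 of 13 (Sufu with 9). The Sonic hedgehog share, 7.69%, also rests on 1 gene. In the cell cycle list, which is not specific to neural cells, 4 of 21 started in dense windows. In it 3 were nearest, Mki67 with 11, E2f1 with 6 and Aurkb with 3. The Mki67 regions lay a median of 365960 bp from its start, so Mki67 is merely their closest coding gene.

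None of 18 housekeeping genes (Actb, B2m, Eef1a1 and Gapdh among them) started in or was nearest to a dense window, although 18 of 18 had a promoter peak in both replicates. The counts were also 0 for 18 endothelial and mural genes such as Abcc9, Cdh5, Emcn and Erg, for 20 liver genes such as Afp, Ahsg, Alb and Apoa1, and for 17 skeletal muscle genes such as Acta1, Actn3, Ckm and Des. The median number of distal regions per gene was 1 in the housekeeping list, 6 in the endothelial, 1.5 in the liver and 3 in the muscle list. With backgrounds of 2.52% and 3.59%, a count of 0 in lists this short is near the background and is not a result about these genes. The microglia list had 1 start of 18, Sall1 with 10 regions, a gene that neural progenitors also use, and C1qa was nearest to 8. The erythroid list had Klf1 with 1 region. Of 1135 olfactory receptor genes 2 started in dense windows and 4 were nearest, led by Olfr1324, which is merely the closest coding gene to the Firre locus. The microglia and erythroid shares, 5.56% and 7.14% started, rest on 1 gene each.

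Clustered regions differed from the other distal regions in several measures. Their median score was 71 against 59 in replicate 1 and 49 against 39 in replicate 2. Width did not separate them, with medians of 170 bp in both sets. The median distance to a coding start was 13405 bp against 27334.5 bp. By location 9.21% lay in exons against 6.25%, 51.0% in introns against 50%, and 39.8% between genes against 43.7%. The intronic share thus hardly set them apart. The windows were spread unevenly: chromosome 11 had 64 dense windows of 2442, 2.62%, and the X chromosome 9 of 3421, 0.263%. The X chromosome also had few distal regions, 2234, and 5.24% of them lay in dense windows, near the 6.18% of all. Of these 117 clustered regions, the Firre windows held 12 and 13, the Mid1 window 24 and the window next to it 14. Each of these windows has at least 3 regions that share 20-base stretches, as described below. On chromosome 11 the share of distal regions in dense windows was 10.7% of 7075. Among the 3 windows with the highest mean score percentile were those at Rara and Top2a (chr11:98950001-99000000) and at Gpr84 and Zfp385a (chr15:103300001-103350000), with median scores of 97 and 75, and 103 and 89.5, in replicates 1 and 2.

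**Figure D3:**
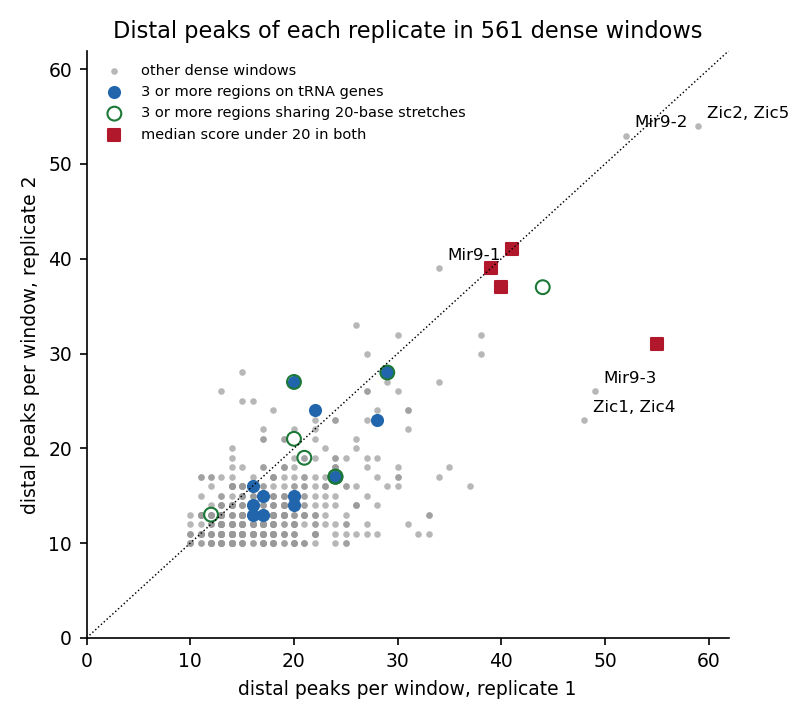
Distal peaks per dense window in replicate 1 (horizontal axis) and replicate 2 (vertical axis); each point is 1 of the 561 windows and the dotted line marks equal numbers. Most windows lie below the line, with medians of 17 and 13, and the Mir9-2 and Zic2 windows are at the upper right.

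The replicates gave different numbers of peaks per cluster, and their whole lists also differ in length. A dense window had a median of 17 distal peaks in replicate 1 (10 to 59) and 13 in replicate 2 (10 to 54). The dense windows held 4.47% of the distal peaks of replicate 1 and 5.82% of those of replicate 2. Counted in 1 replicate alone, 5443 windows reached 10 regions in replicate 1 and 1132 in replicate 2; that all 561 are among both is fixed by the rule. At a threshold of 17 replicate 1 alone gave 601 windows, of which 268 were dense by both, and at 11 replicate 2 alone gave 723, of which 470 were. More of the 561 windows were thus found again from replicate 2 alone than from replicate 1 alone, at thresholds that differ. Replicate 2 has the shorter list, a threshold next to the rule's 10 and more windows kept, so the difference is no measure of the replicates.

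The base composition of clustered regions was higher in GC, with a median of 53.5% against 49.5%, and 18% of them had a GC content of at least 60%, against 6.84%. They held a median of 2.00 CG dinucleotides per 100 bases against 1.33. Among regions over 2000 bp from every start, medians of GC were 53.3% and 49.4%. For motifs, 29 were searched on both strands of the central 200 bp, and matches can overlap; 9 were more frequent in clustered than in other regions and 20 less. The 12 described here were picked once the values were known. The SP/KLF motif GGGCGGG, found in 3.39% of all distal regions, matched 7.22% of the clustered and 3.13% of the other regions. The ETS motif CCGGAAG (1.35% of all) matched 2.07% and 1.3%, the NRF1 site TGCGCA (2.19% of all) 3.12% and 2.13%, and the CTCF core AGGGGGC (6.42% of all) 7.90% and 6.32%.

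Motifs of factors known from neural lineages went both ways. The GLI motif TGGGTGG (4.68% of all) matched 6.53% of clustered against 4.56% of other regions, and the ZIC motif CAGCAGG (12.1% of all) 12.32% against 12.04%. Flanks of 200 bp centred 1000 bp to one side were also searched. There GLI matched 6.47% beside clustered and 4.85% beside all distal regions, about as often as in the regions themselves. ZIC matched 6.97% and 5.55% of these flanks, less often than in the regions. The homeodomain motif TAATTA (6.89% of all) matched 5.53% of clustered against 6.98% of other regions. The NFI site TTGGCA (22.1% of all) matched 18.7% against 22.3%, and the RFX site GTTGCCA (6.26% of all) 5.38% against 6.31%. Of the E-boxes, which bind basic helix-loop-helix factors, CAGATG (24% of all) matched 21.4% against 24.1%, CAGCTG (20.6% of all) 22.4% against 20.5%, and CACGTG (3.76% of all) 4.75% against 3.69%. The other regions were then weighted to the GC content of the clustered ones in bins of 5 percentage points, a step chosen after seeing the data. The direction then turned for 4 of the 12 motifs: the weighted shares of the other regions were 8.10% for CTCF, 23.6% for CAGCTG and 14.1% for ZIC, above the clusters, and 4.92% for the homeodomain motif, below them. The SP/KLF share became 5.76%, closer to 7.22%, and that of GLI 5.57%. The NFI site was still lower in the clusters, at 18.7% against 21.7%. A match is a description of letters and not of binding.

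**Figure D4:**
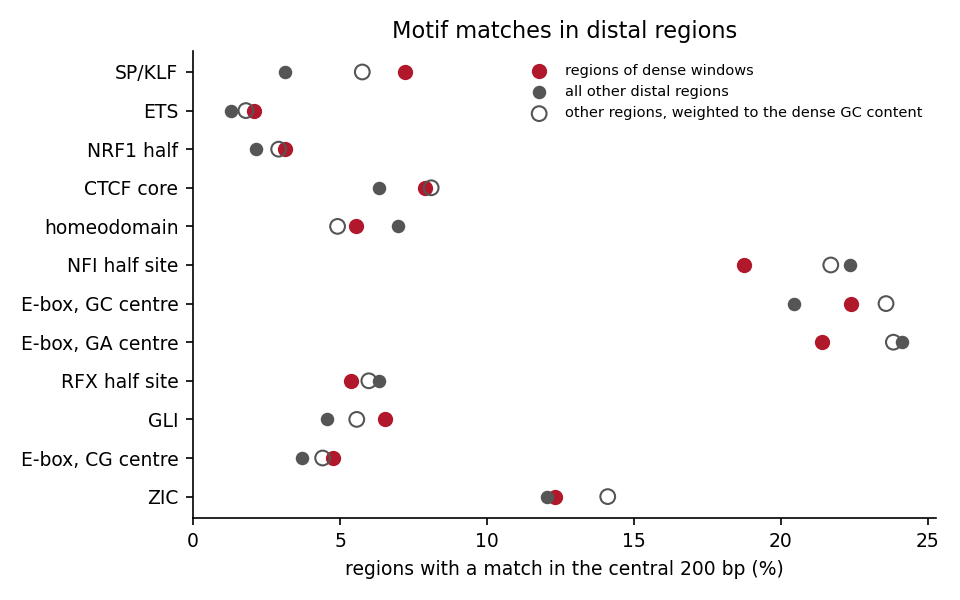
Share of distal regions (horizontal axis, percent) with a match to each of 12 motifs in the central 200 bp, for regions of dense windows (red), other distal regions (grey) and the other regions weighted to the same GC content (open circles). SP/KLF stands at 7.22% in clusters and 3.13% elsewhere, and weighting moves the latter to 5.76%.

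In 4 windows the clusters were made of weak peaks. Both Immp2l windows and the 2 adjacent Adamts18 windows (chr8:113750001-113850000) had median scores under 20 in both replicates: 11 and 12 in replicate 1 and 8.5 and 12 in replicate 2 for Immp2l, and 14 and 13 against 9 and 11 for Adamts18. The lowest medians of the other 557 windows were 29 and 24. Immp2l encodes a mitochondrial inner membrane peptidase, Lrrn3 is a leucine-rich repeat gene nested in it, and Adamts18 encodes a secreted protease. The peak numbers were high and alike, with 41 and 41 distal peaks in the first Immp2l window and 39 and 39 in the second, while Adamts18 had 40 and 37, then 55 and 31. Windows next to the Immp2l block had 1 and 2 regions, and those next to the Adamts18 block 2 and 5. Of all peaks in the map with a score of 15 or less, these 4 windows held 5.84% in replicate 1 and 3.76% in replicate 2. No region in them shared over 10% of its 20-base stretches with another of its window. The cause was not tested.

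**Figure D5:**
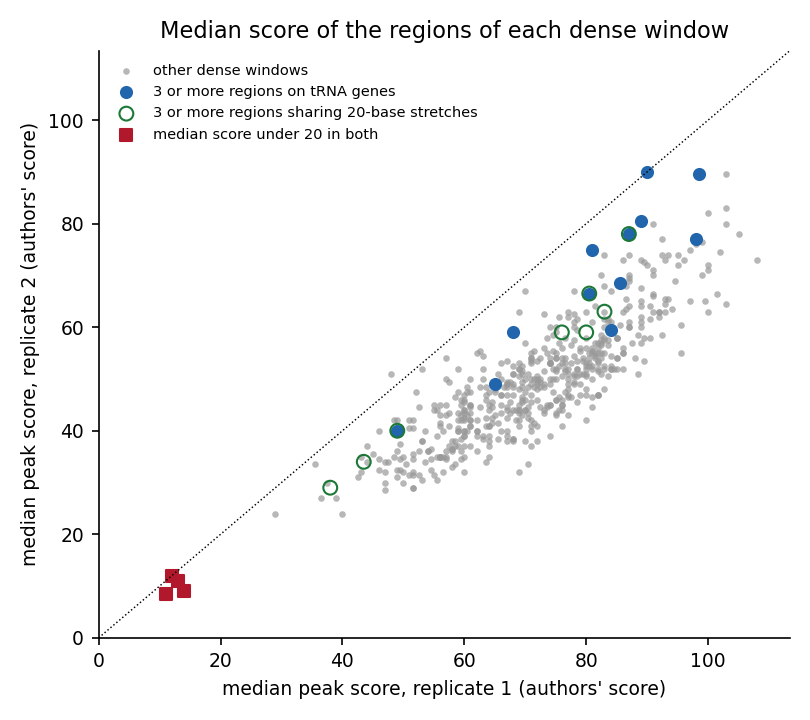
Median score of the regions of each dense window in replicate 1 (horizontal axis) and replicate 2 (vertical axis), in the authors' score units; the dotted line marks equal scores. The 4 red squares, with medians from 8.5 to 14, stand apart from the other 557 windows.

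Another small group of clusters was built on transfer RNA genes, which RNA polymerase III transcribes and of which the annotation of start sites lists only 2 under a transfer RNA symbol, so that peaks on the others counted as distal. Of clustered regions 92, or 1.39%, touched a transfer RNA gene, against 0.0814% of other distal regions and 0.162% of all. Dense windows held 117 of the 403 such genes, 29.0%. In 12 windows at least 3 regions lay on them, the most at chr13:23400001-23450000, with 12 of 20 regions, beside Abt1. Without these regions 14 windows would fall under 10. Their median scores, 91.5 and 82.5 in replicates 1 and 2, were above the 71 and 49 of all clustered regions.

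A further group consisted of near copies. Of clustered regions 71, 1.07%, shared over 10% of their 20-base stretches with another region of their window, against 0.104% of other distal regions and 0.164% of all. Only regions of the same window were compared. A dense window offers more partners, and near copies add to its count, so the selection itself raises the share in the clusters. In 8 windows at least 3 regions did so, in 540 none did, and without such regions 13 windows would fall under 10. Both windows of Firre, a long non-coding RNA gene of the X chromosome known for its repeats, led with 9 of 12 regions (chrX:50550001-50600000) and 8 of 13 (chrX:50600001-50650000). Reads of near copies can be hard to place, and the sources used here do not say how such reads were treated. A pair from the first window, at chrX:50566496-50566645 and chrX:50580316-50580525, shows the pattern, with the shared stretches of at least 20 bases in capitals.
First Firre region: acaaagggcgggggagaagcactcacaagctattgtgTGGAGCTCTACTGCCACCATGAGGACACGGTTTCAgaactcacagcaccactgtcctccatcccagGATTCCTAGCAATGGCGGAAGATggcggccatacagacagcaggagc
Second Firre region: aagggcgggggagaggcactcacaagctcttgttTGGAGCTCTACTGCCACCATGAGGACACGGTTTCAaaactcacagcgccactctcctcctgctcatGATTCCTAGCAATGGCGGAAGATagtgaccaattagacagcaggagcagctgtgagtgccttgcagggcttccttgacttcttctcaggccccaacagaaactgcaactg
In each region 58 bases lie in such stretches. Scores were 75 and 58 in replicates 1 and 2 for the first and 69 and 68 for the second. The Klrb1c window (chr6:128750001-128800000), in a family of natural killer cell receptor genes, had 8 of 15 such regions, and the Mid1 window, with median scores of 38 and 29, had 5 of 24.

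The annotation of start sites matters for the membership. With the starts of transfer RNA genes and RefSeq transcripts added, an alternative chosen after seeing the data, 448 windows were dense, all among the 561. With a distance of over 2000 bp from every start 279 were. Promoter peaks in both replicates were present at 87.1% and 85.6% of the coding genes starting in these smaller sets.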

How the data were processed

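DNase-seq tables of 2 replicates on mm10 were used as deposited. The authors' file list gives peaks and hotspots for each library and no pooled set. Each deposited peak carries a score between 1 and 150, a whole number of unstated meaning; each deposited hotspot carries a −log10 of its q-value between 1.3 and the maximum of 100. No source used here names the aligner, caller, version or threshold, and the lists hold no read counts, so depth is unknown.

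Peaks were merged at 1 bp, and start sites, exons and genes came from GENCODE release M21 of the same build. Transfer RNA genes, sequences and added start sites came from RefSeq's GRCm38. Python 3.11.15, pandas 2.3.3, NumPy 2.4.6, SciPy 1.17.1 and pysam 0.24.0 were used. Window counting was tested on simulated data.

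Named windows are the 10 with the most regions (ties by score percentile), the 5 longest runs, the 5 fullest without a start site and the 3 of highest percentile; named genes are each list's members with the most clustered regions, or the first alphabetically. A few items these rules would name are left out of the text. Members and lists were chosen with earlier results of these data known. Alternatives moved the grid, window size, threshold, start sites, overlap and lists.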

Additional observations from a re-analysis of the deposited data

How the results depend on the processing

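The number of dense windows follows the rule's settings. It was 87 with windows of 100000 bp and at least 20 regions (1.93% of distal regions), 3173 with 25000 bp and at least 5 (17.7%, 52.3% of them intronic), 1629 with at least 8 (14.5%, 53.1% intronic) and 206 with at least 12 (2.75%, 52.8% intronic). Over 2000 bp from every start gave 279 (3.59%, 48.6% intronic), hotspots gave 206 (2.39%, 53.7% intronic) and the higher-scoring part of each list 174 (3.61%). The share of distal regions was 8.52% when each gene's 5′ end alone was a start site (55.1% intronic), 4.71% with reciprocal overlap of 50% and 5.55% with lists of equal length. Of the alternatives chosen after seeing the data, distance from the midpoint gave 6.54%, and added start sites 5.10% (54.4% intronic). Promoter peaks in both replicates moved to 90.3% with a grid shifted by 25000 bp. With hotspots the share was 82.4%, but there a promoter hotspot was counted in place of a promoter peak. Leaving out 1 replicate gave 1132 to 5443 windows, 10.6 to 31.7% of distal regions, 89.0 to 90.4% with promoter peaks and 51.5 to 55.7% intronic. No paired analysis was possible because the study has a single group and no test. Depth is unknown, so a window under the threshold is not shown to lack open regions.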
